A study of Mus musculus with 8 samples.

Results

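The laminin chains and the collagen IV chains, the 2 protein families that build basement membranes, were followed on 8 expression arrays of mouse cells. The set was named by gene: Lama1, Lama3, Lama5, Lamb1, Lamb2, Lamb3, Lamc1, Col4a1 and Col4a5. Of these 9 genes, 8 were among the 17097 genes that had a probe set with 1 gene symbol, and Lama5 was not analysed here. Where a gene had several probe sets, the brightest on average was taken.

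The cells fell into 3 groups. Induced hepatocyte-like cells (iHep) are epithelial lines made from fibroblasts with replication-defective retroviruses. The 3 lines at passage 10 gave 1 array each. By their labels, 4a3CK was transduced with Hnf4a and Foxa3 plus c-Myc and Klf4, 4a1CK with Hnf4a and Foxa1 plus c-Myc and Klf4, and 4a3 with Hnf4a and Foxa3 alone. Primary hepatocytes (PH, n = 3) came from livers of male C57/B6 mice aged 8 to 10 weeks by collagenase perfusion and were then kept in Hep medium, the medium of the lines. Mouse embryonic fibroblasts (MEF, n = 2) came from C57/B6 embryos at day 13.5, for MEF 1 after the head and inner organs had been taken away. Hep medium held serum, dexamethasone, nicotinamide, insulin, transferrin, selenium and the growth factors FGF4, HGF and EGF, and the lines grew on dishes coated with type I collagen. The labels say neither whether a line is 1 clone nor whether the PH and MEF arrays came from separate animals. Each p-value rests on array-to-array spread, pooled over the 3 groups in 1 fit. Within PH and within MEF that spread may be technical. Within iHep it lies between lines with different factors, 1 array each.

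A laminin is a cross-shaped trimer of 1 alpha, 1 beta and 1 gamma chain. Laminins bind integrins and dystroglycan on the cell surface and polymerise into a sheet, which nidogen joins to a network of collagen IV, itself built from trimers of alpha chains. In adult liver, hepatocytes face the sinusoid across a space without a continuous basement membrane, whereas bile ducts and large vessels rest on one. Lamc1 encodes the gamma chain that most laminins share, and Col4a1 pairs with Col4a2 in the collagen IV of nearly all basement membranes.

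Col4a1 and Col4a2 lie head to head, and their windows around the transcription start are shown because both genes were highest in the same one of the 3 lines. The windows run from 250 bases before to 50 bases after the start in RefSeq, build GRCm38.p6. The Col4a1 window is chr8:11312777-11313076 on the minus strand and the Col4a2 window chr8:11312555-11312854 on the plus strand. The capitals mark the 78 bases that both windows hold, read from opposite strands, and the 2 starts lie 222 bases apart.
Col4a1: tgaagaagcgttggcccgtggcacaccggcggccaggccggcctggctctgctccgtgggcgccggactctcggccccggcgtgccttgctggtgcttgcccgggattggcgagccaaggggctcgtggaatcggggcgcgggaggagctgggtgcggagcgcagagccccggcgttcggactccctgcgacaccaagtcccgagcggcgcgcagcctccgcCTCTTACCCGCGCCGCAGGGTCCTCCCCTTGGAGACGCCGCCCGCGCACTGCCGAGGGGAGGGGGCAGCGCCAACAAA
Col4a2: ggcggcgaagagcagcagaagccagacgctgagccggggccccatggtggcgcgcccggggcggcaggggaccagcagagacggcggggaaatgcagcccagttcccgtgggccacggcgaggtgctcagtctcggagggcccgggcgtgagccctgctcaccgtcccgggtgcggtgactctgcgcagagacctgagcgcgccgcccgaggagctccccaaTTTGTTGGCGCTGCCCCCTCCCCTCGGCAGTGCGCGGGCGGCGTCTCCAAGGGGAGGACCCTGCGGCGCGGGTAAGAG
Lamb1 and Lamb2, the genes that passed the test, have the windows chr12:31265043-31265342 and chr9:108479612-108479911, both on the plus strand. Their capitals mark matches to a CCAAT box, to a GC box, spelled GGGCGG, or to a TATA box, spelled TATAAA, on either strand.
Lamb1: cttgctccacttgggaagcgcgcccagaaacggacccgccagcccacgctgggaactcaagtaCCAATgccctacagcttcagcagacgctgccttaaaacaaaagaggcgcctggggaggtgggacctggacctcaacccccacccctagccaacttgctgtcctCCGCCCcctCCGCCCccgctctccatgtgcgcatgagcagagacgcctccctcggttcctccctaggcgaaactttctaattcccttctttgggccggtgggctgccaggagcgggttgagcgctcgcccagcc
Lamb2: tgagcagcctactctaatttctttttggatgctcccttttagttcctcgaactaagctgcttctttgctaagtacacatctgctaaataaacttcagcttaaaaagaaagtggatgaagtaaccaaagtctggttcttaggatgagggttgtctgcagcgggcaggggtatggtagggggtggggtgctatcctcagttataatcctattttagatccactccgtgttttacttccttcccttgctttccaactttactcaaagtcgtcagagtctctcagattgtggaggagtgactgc

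The table of start windows matched 6 of the 9 genes with 7 windows. A CCAAT box was found in 37.4% and a GC box (GGGCGG) in 35.7% of all 32851 windows of the same length, counting both strands. The Lamb1 window held 1 CCAAT box and 2 GC boxes and was 63.7% G and C, whereas the Lamb2 window held no such match and was 44.0% G and C. The median over all windows was 52.7%. The Col4a1 window held 1 CCAAT and 1 GC box, the Col4a2 window 1 and 3, and the Col4a5 window 1 of each. TATAAA, present in 13.6% of all windows, and the E-box CACGTG, present in 7.2%, were in none of the windows of Lamb1, Lamb2, Lamb3, Col4a1, Col4a2 or Col4a5. These matches describe letters only.

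The arrays were not on 1 level. The median log2 signal over all probe sets lay from 4.40 to 4.45 in the lines, at 4.23, 4.24 and 5.06 in PH 1, 2 and 3, and at 4.24 and 4.23 in MEF 1 and 2, so PH 3, the hepatocyte array without a number in its label, stood above the rest. PH 1 and PH 2 were close, with a standard deviation of their differences across genes of 0.16, against 0.57 for the 2 MEF arrays. The nonspecific control probe sets of the array had a 95th percentile from 3.63 to 3.80 in the lines, 3.19 to 4.44 in PH and 3.23 to 3.34 in MEF. All 10 hepatocyte markers together read from 12.68 to 13.66 in the lines, 14.35 to 14.82 in PH and 7.82 to 8.31 in MEF, as the log2 of their summed signal. The 13 fibroblast markers read 8.76 to 10.13, 8.21 to 8.77 and 13.47 to 14.41 in the same order, and albumin (Alb), the main hepatocyte secreted protein, read 3.80, 4.01 and 9.30 in 4a3CK, 4a1CK and 4a3, 11.94, 11.87 and 11.90 in PH, and 4.12 and 4.01 in MEF. As a group the lines passed for few of the markers. For iHep against MEF 3 of 10 passed (Apoa1, Krt8 and Krt18, all higher), against 7 of 10 for PH against MEF. The lines differed in others. Trf read 11.68, 4.58 and 8.21 in 4a3CK, 4a1CK and 4a3, against 4.48 and 4.90 in MEF. Serpina1a read 7.38, 3.06 and 9.63, against 2.98 and 3.44. Tdo2 read 4.14, 4.15 and 4.23, against 4.22 and 3.93. The median of the 10 lay from 4.62 to 8.10 in the lines, 10.84 to 11.39 in PH and 4.29 to 4.35 in MEF, and 4a3CK and 4a1CK had albumin no higher than the fibroblasts did. The transduced factor Hnf4a read 9.59, 5.505 and 6.04 in 4a3CK, 4a1CK and 4a3, 9.54, 9.48 and 9.78 in PH, and 5.65 and 5.62 in MEF. The line 4a1CK was thus below both fibroblast arrays. Foxa3 and Foxa1 read from 3.87 to 4.19 in the lines, against 3.62 to 3.71 in MEF. Whether these probe sets read the transduced copies was not tested, so they do not check the labels.

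**Figure D1:**
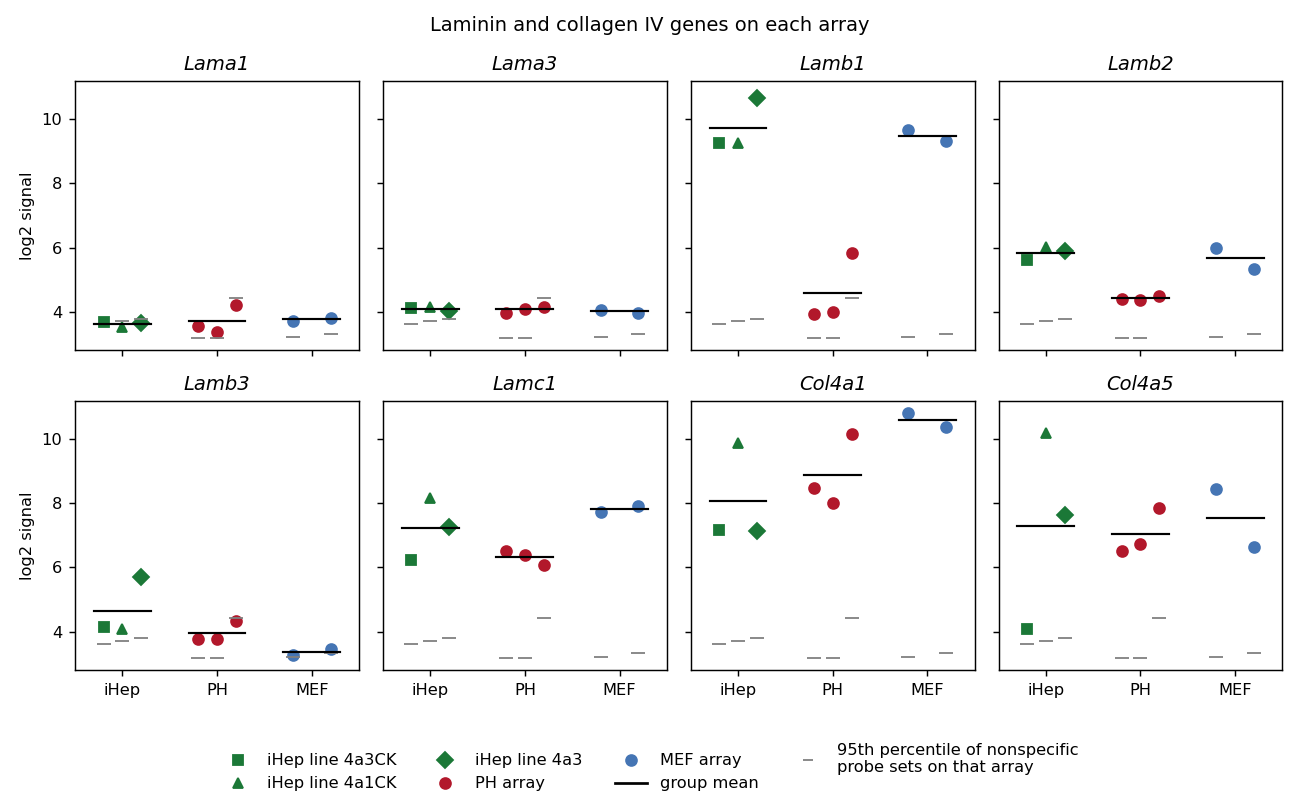
Log2 signal (vertical axis) of the 8 measured genes on each array, by group (horizontal axis), with iHep lines as separate symbols, black bars for group means and grey dashes for the 95th percentile of nonspecific control probe sets on that array. Lamb1 lies from 9.25 to 10.65 in the lines, 3.95 to 5.83 in PH and 9.31 to 9.65 in MEF, and 4a1CK is the highest line for Lamc1, Col4a1 and Col4a5.

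Lamb1 and Lamb2, which encode the beta chains of most laminins, were low in hepatocytes and near fibroblast levels in the lines on the probe sets used. Lamb1, the beta chain of the embryonic and many adult laminins, fell by 4.89 on the log2 scale in PH against MEF, a 29.7-fold difference, and stood 5.13 higher in the lines than in PH. Lamb2, the beta chain of neuromuscular, vascular and kidney laminins, fell by 1.23 in PH against MEF and was 1.40 higher in the lines than in PH. The test was limma's, and a pass needed an adjusted p under 0.05 with Benjamini-Hochberg adjustment over all 17097 genes and a log2 difference of at least 1, which is 2-fold. Of the 8 measured genes 2 passed for PH against MEF, both lower, where 5.85% of all genes passed and 2.47% passed as lower. For iHep against PH 2 passed, the same 2 genes and both higher, where 7.13% of all genes passed and 1.49% as higher. For iHep against MEF 0 of 8 passed in limma, where 6.45% of all genes did, and 2, Lamb3 and Col4a1, had an unadjusted p under 0.05.

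The alpha chain genes Lama1 and Lama3 gave low signals in every group. Lama1, the alpha chain of early embryonic basement membranes (probe set 1418153_PM_at), read 3.70, 3.55 and 3.67 in 4a3CK, 4a1CK and 4a3. It read 3.56, 3.37 and 4.22 in PH 1, 2 and 3, and 3.72 and 3.83 in MEF 1 and 2. On 3 of the 8 arrays, 2 of lines and PH 3, it did not exceed the 95th percentile of the nonspecific probe sets. Lama3, an alpha chain of epithelial laminins (probe set 1444860_PM_at), read 4.12, 4.15 and 4.04 in the lines in that order, 3.98, 4.10 and 4.17 in PH, and 4.07 and 3.98 in MEF. Its other probe set ranged from 3.74 to 4.62. The differences of both genes lay between -0.13 and 0.07 in the 3 comparisons, with standard errors from 0.18 to 0.28, and at signals this close to the nonspecific level a difference in the transcript may not be visible.

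Lamb1 (probe set 1424114_PM_s_at) read 9.25, 9.27 and 10.65 in 4a3CK, 4a1CK and 4a3. It read 3.95, 4.00 and 5.83 in PH 1, 2 and 3, and 9.65 and 9.31 in MEF 1 and 2. Every hepatocyte array was below every other array, and the lines overlapped with the fibroblasts. The group means were 9.72 ± 0.80 in iHep (SD, n = 3), 4.59 ± 1.07 in PH (SD, n = 3) and 9.48 ± 0.25 in MEF (SD, n = 2). The limma difference was -4.89 ± 0.63 for PH against MEF (SE, adjusted p = 0.00243) and 5.13 ± 0.56 for iHep against PH (SE, adjusted p = 0.0014). For iHep against MEF it was 0.24 ± 0.63 (SE, adjusted p = 0.854), which did not pass.

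Lamb1 had 4 probe sets. A second one (1424113_PM_at) read 8.36, 8.38 and 9.75 in 4a3CK, 4a1CK and 4a3, 3.50, 4.11 and 3.97 in PH 1, 2 and 3, and 9.50 and 9.11 in MEF 1 and 2. The higher value of PH 3 on the probe set used was thus not seen on the second one. Another probe set differed by -2.24 for PH against MEF, and the last stayed between 3.38 and 3.88 on all arrays. For iHep against MEF the probe set used gave 0.24, the second -0.47, the one with -2.24 gave -0.60 and the last 0.19. The sign of that difference thus depends on the probe set. On all but the last, 4a3CK and 4a1CK read below both fibroblast arrays and 4a3 above both.

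**Figure D2:**
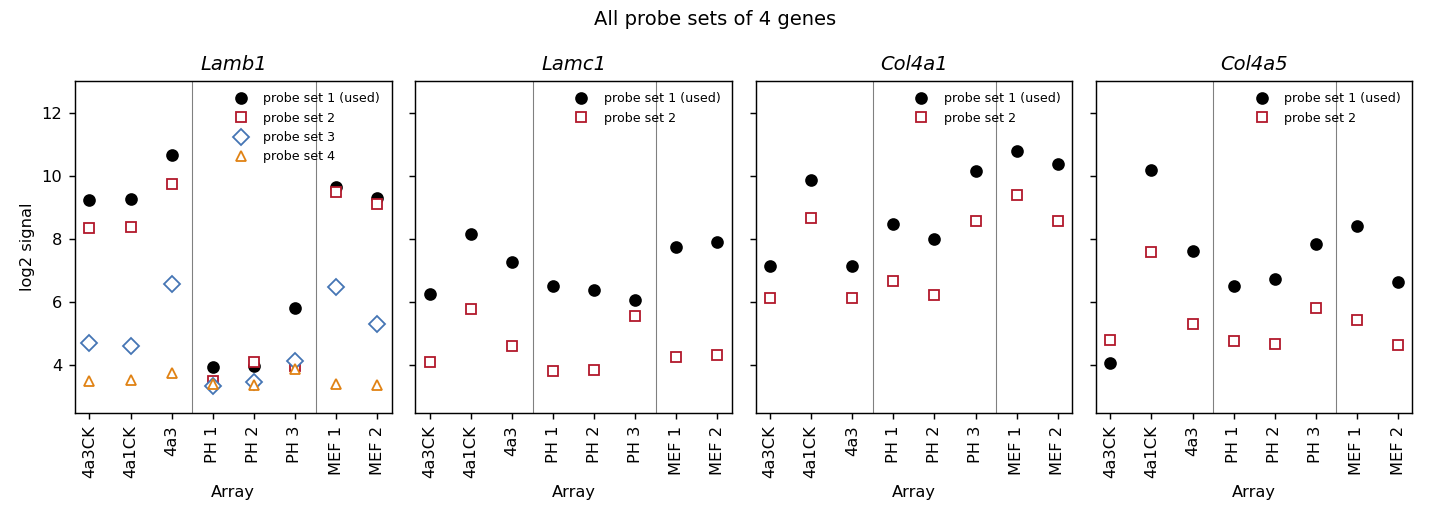
Log2 signal (vertical axis) of every probe set of Lamb1, Lamc1, Col4a1 and Col4a5 on the 8 arrays (horizontal axis), filled for the probe set used and open for the others, with thin lines between iHep, PH and MEF. The first 2 probe sets of Lamb1 share the low values of PH, the 2 of Col4a1 run in parallel, and the second of Lamc1 reads 5.56 in PH 3 but 3.82 and 3.85 in PH 1 and 2.

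Lamb2 (probe set 1416513_PM_at) read 5.62, 6.01 and 5.89 in 4a3CK, 4a1CK and 4a3, 4.41, 4.38 and 4.51 in PH 1, 2 and 3, and 5.98 and 5.35 in MEF 1 and 2. The hepatocyte arrays were again the lowest, with a narrow spread on the deposited values. With array medians subtracted PH 1, 2 and 3 read 0.18, 0.15 and -0.55, so the narrow spread depends on the scaling. The deposited value of PH 3 was close to the nonspecific 95th percentile of that array (4.44). The means were 5.84 ± 0.20 in iHep, 4.43 ± 0.07 in PH (SD, n = 3 each) and 5.67 ± 0.45 in MEF (SD, n = 2). The difference was -1.23 ± 0.26 for PH against MEF (SE, limma adjusted p = 0.0253) and 1.40 ± 0.23 for iHep against PH (SE, limma adjusted p = 0.00884). The call for Lamb2 in PH against MEF was lost without MEF 1 (difference -0.92, limma adjusted p = 0.24), without PH 1 or PH 2 (limma adjusted p = 0.0859 and 0.0883) or without the line 4a3 (limma adjusted p = 0.0538), whereas its call for iHep against PH held when any 1 array was left out.

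Lamb3, the beta chain of the laminin that anchors skin and other lining epithelia (probe set 1417812_PM_a_at), read 4.16, 4.08 and 5.71 in 4a3CK, 4a1CK and 4a3. It read 3.78, 3.78 and 4.35 in PH 1, 2 and 3, and 3.29 and 3.48 in MEF 1 and 2. The line 4a3 was the highest array, and every line and hepatocyte array read above both fibroblast arrays. The value of PH 3 did not exceed the nonspecific 95th percentile of that array (4.44), and with array medians subtracted it was -0.71, against -0.75 in MEF 2. The differences were 1.26 ± 0.48 for iHep against MEF (SE, limma adjusted p = 0.175), 0.58 ± 0.48 for PH against MEF (SE, limma adjusted p = 0.623) and 0.68 ± 0.42 for iHep against PH (SE, limma adjusted p = 0.449), none of which passed. Without the line 4a3 the difference was 0.73 between iHep and MEF and 0.15 between iHep and PH.

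Lamc1, the shared gamma chain (probe set 1423885_PM_at), read 6.25, 8.17 and 7.26 in 4a3CK, 4a1CK and 4a3, 6.52, 6.40 and 6.06 in PH 1, 2 and 3, and 7.73 and 7.92 in MEF 1 and 2. The hepatocytes lay below the fibroblasts, and the lines spread over the whole range, with 4a1CK above both fibroblast arrays and 4a3CK among the hepatocytes. The difference was -1.50 ± 0.48 for PH against MEF (SE, limma adjusted p = 0.133), and the call was gained when the fit left out 4a3CK (adjusted p = 0.0294) or 4a1CK (adjusted p = 0.0428), with the difference itself unmoved. Lamc1 also passed in limma, and Lamb2 did not, with each line as its own group (adjusted p = 0.0235 and 0.0662). A fit of only PH and MEF gave the same values and is no separate check. The second gene that passed beside Lamb1 thus depended on the fit. For iHep against PH the difference was 0.90 ± 0.43 (SE, limma adjusted p = 0.29), or 1.39 without 4a3CK (limma adjusted p = 0.036). The second probe set of Lamc1 differed by 0.11 for PH against MEF, so the 2 probe sets disagree there.

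Col4a1, a chain of the common collagen IV network (probe set 1452035_PM_at), read 7.16, 9.86 and 7.15 in 4a3CK, 4a1CK and 4a3. It read 8.47, 8.01 and 10.14 in PH 1, 2 and 3, and 10.80 and 10.36 in MEF 1 and 2. Both fibroblast arrays were the highest, and 4a1CK and PH 3 stood apart from the other arrays of their groups. The difference was -2.52 ± 0.88 for iHep against MEF (SE, limma adjusted p = 0.145) and -1.71 ± 0.88 for PH against MEF (SE, limma adjusted p = 0.418). Without 4a1CK the difference between iHep and MEF was -3.43 and passed (limma adjusted p = 0.0182). The second probe set gave -2.00 and -1.83 for the same comparisons.

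Col4a5, a collagen IV chain of kidney, eye and some epithelial basement membranes (probe set 1425476_PM_at), had the widest spread among the lines, at 4.09, 10.17 and 7.63 in 4a3CK, 4a1CK and 4a3. It read 6.51, 6.73 and 7.83 in PH 1, 2 and 3, and 8.42 and 6.63 in MEF 1 and 2. The 3 groups overlapped, and the difference was -0.23 ± 1.46 for iHep against MEF (SE, limma adjusted p = 0.943). For PH against MEF it was -0.50 ± 1.46 (SE, limma adjusted p = 0.851) and for iHep against PH 0.27 ± 1.31 (SE, limma adjusted p = 0.957). The wide errors come with the spread of the 3 lines, which had a standard deviation of 3.05, against 0.71 in PH and 1.27 in MEF.

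**Figure D3:**
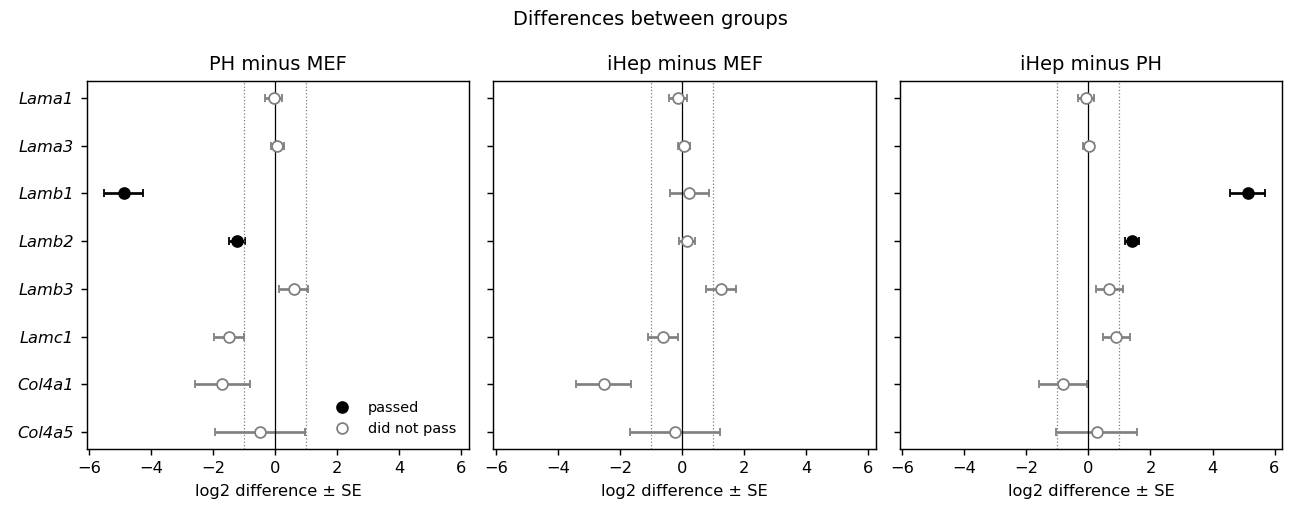
Log2 difference between group means (horizontal axis, points) with the standard error of the limma model (bars) for the 8 genes in the 3 comparisons, filled where the gene passed and open where it did not, with dotted lines at a difference of 1. Lamb1 and Lamb2 pass as lower in PH minus MEF and as higher in iHep minus PH, and no gene passes in iHep minus MEF.

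The arrays of PH and MEF did not overlap for 5 of the 8 genes, 4 of them lower in PH, where 38.0% of all genes did not overlap. For iHep and MEF 3 of 8 did not overlap, against 60.9% of all genes, and for iHep and PH 2 of 8, against 26.3%. On the deposited values the median difference of the 8 genes was -0.87 for PH against MEF, where that of all genes was 0.25. That of the 8 was -0.03 for iHep against MEF beside 0.16 for all genes. For iHep against PH it was 0.47 beside -0.09 for all genes. After quantile normalization the median of all genes for PH against MEF was 0.015, and no median of the 8 was taken.

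By their accession numbers the arrays were deposited in 2 sets, the first with the lines, PH 3 and MEF 2 and the second with PH 1, PH 2 and MEF 1. Within the first set Lamb1 differed by -3.48 between PH and MEF (1 array each), and within the second by -5.68 (2 and 1 arrays). Lamb2 differed by -0.84 and -1.59 and Lamc1 by -1.86 and -1.28 in the same 2 sets. Col4a5 went opposite ways, at 1.21 in the first set and -1.80 in the second, and Col4a1 differed by -0.22 and -2.56. The median over all genes was 0.70 in the first set and 0.02 in the second, and the part of the array level in these values was not tested. Within the first set the lines exceeded PH 3 by 3.89 for Lamb1 and by 1.33 for Lamb2. With the deposit set as a block in limma the same 2 genes passed for PH against MEF and for iHep against PH.

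Between the lines, most of the larger differences fell on collagen IV and on Lamb1, Lamb3 and Lamc1. With 1 array per line there is no test, and differences of at least 1 on the log2 scale were counted. Each set of factors was in 1 line only, so a factor cannot be told apart from the line. For 4a3CK minus 4a3, whose labels differ by c-Myc and Klf4, 4 of 8 genes were past that size, all lower. Of all genes 9.81% were, in either direction. They were Col4a5 (-3.54), Lamb3 (-1.55), Lamb1 (-1.40) and Lamc1 (-1.02). For 4a1CK minus 4a3 there were 4 of 8, against 5.89% of all genes, with Col4a1 at 2.71 and Col4a5 at 2.55 higher and Lamb3 at -1.63 and Lamb1 at -1.38 lower. For 4a3CK minus 4a1CK, whose labels differ by the Foxa factor, there were 3 of 8, against 10.7% of all genes. These were Col4a5 (-6.08), Col4a1 (-2.70) and Lamc1 (-1.93). Only 3 of 17097 genes were lower than Col4a5 in that last pair.

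Lamb1 was thus nearly equal in 4a3CK and 4a1CK (9.25 and 9.27) and higher in 4a3, while Col4a1 and Col4a5 separated 4a1CK from 4a3CK. Their second probe sets gave -2.54 and -2.79 for 4a3CK minus 4a1CK. For 4a3CK minus 4a3 the second probe set of Col4a5 gave -0.51, which is not past 2-fold, where the one used gave -3.54. That of Lamc1 gave -0.53, also not past 2-fold, where the one used gave -1.02. For 4a1CK minus 4a3 the second probe set of Lamc1 gave 1.17, where the one used gave 0.91. For 4a3CK minus 4a1CK it gave -1.70. The head-to-head partners of both collagen genes were looked at after the values of the lines had been seen. Col4a2 read 6.83, 8.60 and 6.16 in 4a3CK, 4a1CK and 4a3. Col4a6, the neighbour of Col4a5 on chromosome X with a start 1142 bases away, read 4.37, 7.07 and 4.44. These 4 genes were higher in 4a1CK than in the other lines. Col4a3 did not share this, at 4.90, 4.94 and 5.03 in 4a3CK, 4a1CK and 4a3. Col4a4 read 3.31, 3.45 and 3.50 in the same order. These values were below the nonspecific 95th percentile of each line array (3.63, 3.72 and 3.80), where a difference may not be visible. Nidogen 1 (Nid1), also looked at afterwards, read 8.91, 11.12 and 7.50 in the 3 lines.

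**Figure D4:**
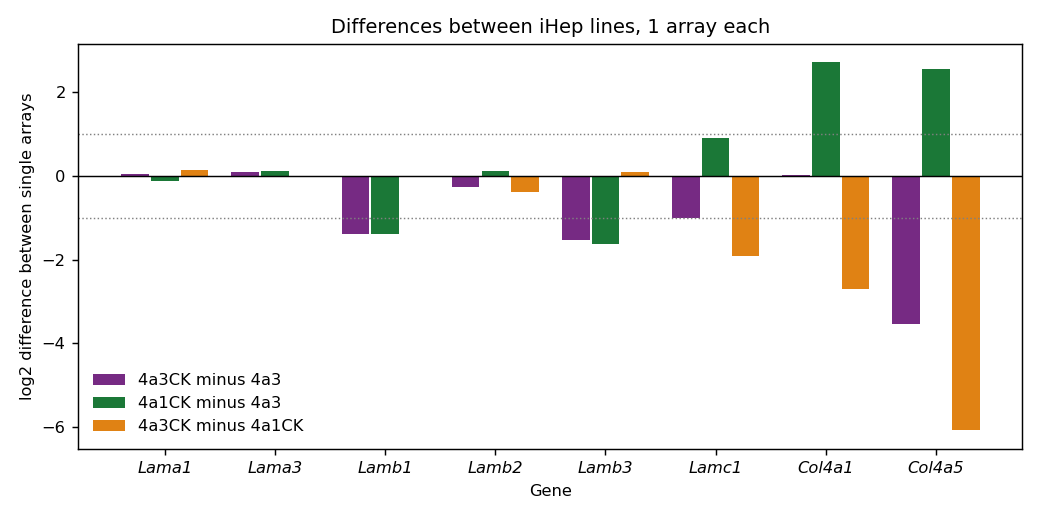
Log2 difference between single arrays of the iHep lines (vertical axis, bars) for the 8 genes (horizontal axis), 1 colour per pair of lines, with dotted lines at 1 and -1. Col4a5 reaches -6.08 for 4a3CK minus 4a1CK, and Lamb1 and Lamb3 are lower in 4a3CK and 4a1CK than in 4a3.

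Of the 6 other laminin and collagen IV chains measured, of 9 listed, 1 passed for PH against MEF, Lama2, the alpha chain of muscle laminin, at -1.48 ± 0.34 (SE, limma adjusted p = 0.0402). None of the 6 passed in limma for iHep against MEF, where 2 had an unadjusted p under 0.05, or for iHep against PH, where 1 had. Col4a2 stood at 7.20 ± 1.26 in iHep, 7.14 ± 1.03 in PH (SD, n = 3 each) and 9.88 ± 0.51 in MEF (SD, n = 2). Its difference was -2.68 for iHep against MEF (limma adjusted p = 0.0808) and -2.73 for PH against MEF (limma adjusted p = 0.0853). Leaving out PH 3, or quantile normalization, gave 2 of the 6 as lower for iHep against MEF, both settings having been chosen after the data were seen.

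Of 19 other basement membrane components 1 rose and 3 fell in PH against MEF. Smoc1, a calcium-binding matrix protein, rose by 1.53, while its relative Smoc2 (-4.26), the collagen-binding protein Sparc (-3.79) and the elastic fibre and basement membrane protein Fbln1 (-2.65) fell. For iHep against MEF 0 rose and 2 fell, Smoc2 (-4.51) and Sparc (-3.99). For iHep against PH Fbln1 was higher by 3.06, and the proteoglycan agrin (Agrn, -2.00) and Smoc1 (-1.44) were lower. The medians of this list were 0.12, 0.06 and 0.04 in the 3 comparisons, beside 0.25, 0.16 and -0.09 for all genes. Perlecan (Hspg2), the large basement membrane proteoglycan, averaged 6.83 in iHep, 6.96 in PH and 6.84 in MEF.

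Of 14 receptors for laminin or collagen IV 2 rose and 1 fell in PH against MEF. The tetraspanin Cd151, a partner of laminin-binding integrins, rose by 1.98 and the integrin chain Itga3 by 1.71. Itgb1, the beta chain that pairs with Itga3, fell by 1.29. In iHep against MEF Itga3 rose by 1.28 and Itgb1 fell by 1.98, and in iHep against PH 1 of the 14 passed, Cd151 (-1.04), which no longer passed without PH 3 or after quantile normalization.

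Many genes of collagen processing and crosslinking and of the interstitial collagens fell in PH and in iHep against MEF. Of 16 processing genes 0 rose and 8 fell in PH against MEF, with a median of -1.66, and 0 rose and 8 fell in iHep against MEF, with a median of -2.17. The largest falls among the genes that passed in PH were those of the lysyl oxidase relatives Loxl1 (-5.81) and Loxl3 (-4.50), the collagen chaperone Serpinh1 (-4.25) and peroxidasin (Pxdn, -2.96), which crosslinks collagen IV. Lysyl oxidase itself (Lox) differed by -5.07 and did not pass (limma adjusted p = 0.0791). The largest among those that passed in iHep were Loxl1 (-5.14), Loxl3 (-4.48), the lysyl hydroxylase Plod1 (-3.24) and Loxl2 (-2.87). For iHep against PH 2 of the 16 were higher, the lysyl hydroxylase Plod2 (2.37) and Serpinh1 (1.57), and Loxl2 was lower (-1.17).

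Of 11 interstitial collagens 8 fell in PH against MEF, or 4 without PH 3, and 6 fell in iHep against MEF, with 0 rising in either. Col3a1 led both, at -5.85 in PH and -7.14 in iHep. The others named by size were Col6a3 (-5.72), Col6a1 (-5.43) and Col1a1 (-5.05) in PH, and Col5a2 (-5.66), Col1a1 (-5.66) and Col5a1 (-4.46) in iHep. Of the 11, only Col6a1 passed between iHep and PH, higher by 3.56, and without PH 3 it did not. Of the 13 fibroblast markers, which include Col1a1 and Col3a1, 11 fell in PH against MEF and 9 in iHep against MEF. For iHep against PH 3 of them were higher, Twist2 (2.997), S100a4 (2.85) and Twist1 (2.75), and 2 lower, Dcn (-2.68) and Postn (-1.61). The other 8 of the 13 did not pass in that comparison, and the median of the list was -0.17. Twist2, S100a4 and Twist1 were thus higher in the lines, as Lamb1 and Lamb2 were, but the list as a whole was not. The part of these 3 markers was not tested. Both the PH and the iHep comparison use the same 2 MEF arrays.

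**Figure D5:**
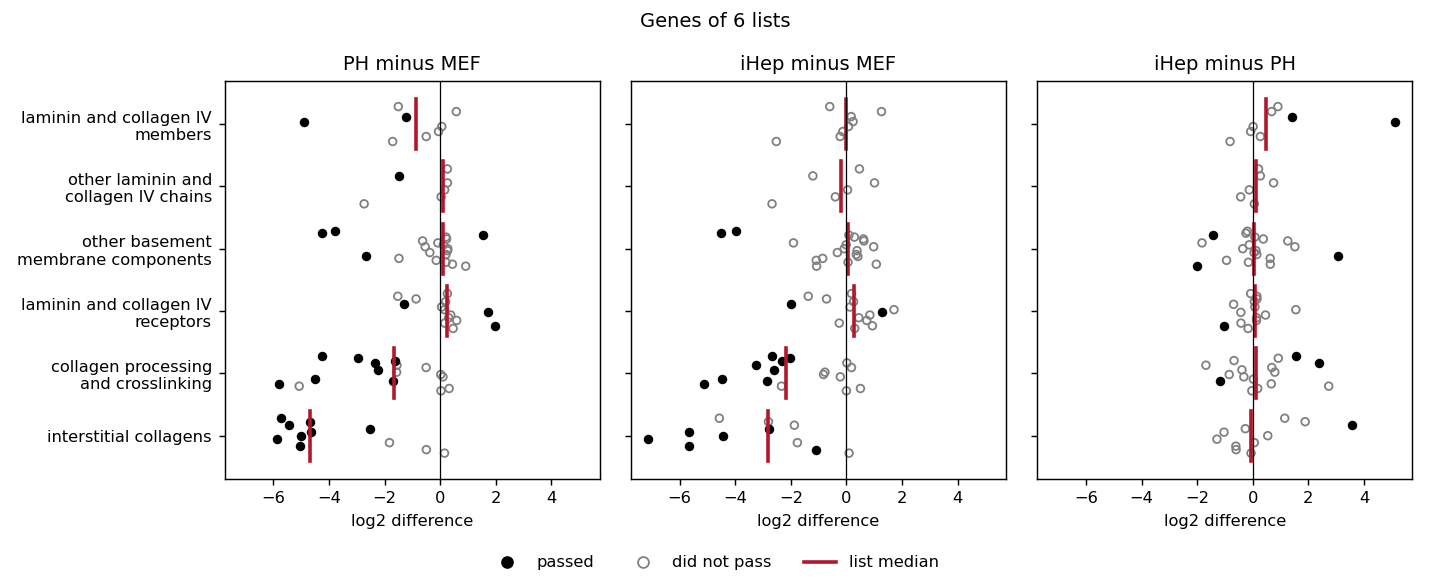
Log2 difference (horizontal axis) of each measured gene of 6 lists (rows) in the 3 comparisons, filled where the gene passed and open where it did not, with a red bar at the list median. The interstitial collagens have a median of -4.69 in PH minus MEF and -2.81 in iHep minus MEF, while the 8 laminin and collagen IV genes have medians of -0.87 and -0.03.

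Other cell types that make basement membrane were followed through their markers. In PH against MEF 0 of 10 endothelial markers passed in limma and 0 had an unadjusted p under 0.05, and their summed log2 signal lay from 7.72 to 7.89 in iHep, 7.60 to 8.35 in PH and 7.62 to 7.78 in MEF. The endothelial markers Pecam1 and Cdh5 read from 3.58 to 4.17 and from 3.96 to 4.56 in PH, the upper values being those of PH 3. Pecam1 in PH 3 was below the nonspecific 95th percentile of that array (4.44). Of the 10 endothelial markers 5 did not exceed that level on any iHep array, 1 on any PH array and 2 on any MEF array. At such signals a difference may not be visible. The 10 stellate cell markers summed to 7.54 to 8.39 in iHep, 8.09 to 8.36 in PH and 8.74 to 9.09 in MEF, and 1 of them, Rgs5, fell in iHep against MEF. The 7 measured bile duct markers summed to 10.33 to 11.13 in iHep, 9.59 to 9.85 in PH and 7.98 to 8.17 in MEF, but their medians lay lower in iHep (4.72 to 5.09) than in PH (6.15 to 6.32), and at 4.80 to 5.00 in MEF. Between iHep and PH 1 of the 7 was higher, Krt19, a keratin of simple epithelia (2.81), and 1 lower, the tight junction protein Cldn4 (-2.81). The part of such cells in the values of the laminin and collagen IV genes was not tested, and fewer cells of a type cannot be told apart from less RNA per cell.

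The genes most like 3 of the members were ranked by Pearson's r over the 8 arrays among 6412 genes with a standard deviation of at least 0.5. Nearest to Lamc1 were the insulin receptor substrate Irs1 (r = 0.97), the transcription factor Snai2 (r = 0.97) and C1qtnf12 (r = 0.95). Nearest to Col4a1 were the adaptor Grb10 (r = 0.95), Cavin2 of caveolae (r = 0.95) and the sulfotransferase Chst11 (r = 0.94). Nearest to Lamb3 were Ttc36 (r = 0.97), the transcriptional regulator Cited1 (r = 0.97) and the integrin chain Itga5 (r = 0.96). These values describe 8 arrays in 3 groups, with the array level in common, and for Lamb3 they rest largely on the line 4a3. Itga5, for example, read 5.44 in 4a3 and from 3.33 to 3.93 on the other arrays.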

How the data were processed

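Total RNA of 8 samples was hybridized to 1 expression array each. What the authors deposited is a log2 signal for each probe set. The submitters' processing notes name Partek and RMA, with versions not given in the sources used here. They were used as deposited. Of 45141 probe sets 28898 carried 1 symbol, for 17097 genes. For the 7180 genes with several probe sets the one with the highest mean was used. A model of 3 groups on all 8 arrays, with 5 residual degrees of freedom, was fitted by limma 3.58.1 (R 4.3.3), two-sided, with Benjamini-Hochberg adjustment over 17097 genes and a threshold of 0.05 with a log2 difference of at least 1. The fit was tested on simulated data with 200 changed genes. Where the true log2 change was 1.5, the recovered share was 29.5% (PH, MEF), 28.5% (iHep, MEF) and 42% (iHep, PH). With a change of 3 the shares were 87%, 85% and 90.5% in that order. At most 6 genes were called falsely in any of these runs. A gene that did not pass may thus still differ by about 1.5. Plots were drawn with matplotlib 3.10.9.

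The members and lists were chosen with earlier results of these data known. Beside the members, up to 4 passing genes of each list with the largest differences were named for each comparison, and the 3 genes most like Lamc1, Col4a1 and Lamb3. Hepatocyte, fibroblast, endothelial, stellate cell and bile duct lists served as markers. Start windows came from RefSeq sequences of GRCm38.p6. Precision is limited by how few arrays there are. The nonspecific level was the 95th percentile of 23 control probe sets. Alternatives changed the probe set rule, dim genes, scaling, variance model, groups, threshold, blocks and arrays left out.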

Additional observations from a re-analysis of the deposited data

How the results depend on the processing

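Lamb1 passed in the same direction under each of 22 alternatives for PH against MEF, with differences from -5.51 to -3.11. For iHep against PH it passed under each of 20, from 2.95 to 5.75. The 22 are not all distinct for PH against MEF. Each line as its own group gave the same values as only the groups compared. The bacterial control block gave the same values as leaving out PH 3. Lamb2 passed under each of 20 for iHep against PH, from 1.32 to 1.54, but lost its call under 10 of 22 for PH against MEF, with adjusted p up to 0.24. Of the members, 1 passed for PH against MEF, in place of 2, at an adjusted p under 0.01, with PH 1 and PH 2 averaged, with the replicate block and with a crossed replicate block chosen after seeing the data. Leaving out 1 array gave 1 to 3 members for PH against MEF and 0 to 1 for iHep against MEF, where 1 also passed with each line as its own group (Col4a1, adjusted p = 0.033). Replicate numbers, which pair MEF and PH arrays by label only, were checked: the differences of MEF 1 from MEF 2 and of PH 1 from PH 2 correlated at -0.20 across genes.

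Over all genes an adjusted p under 0.01 left 522 of 1000 genes for PH against MEF, 389 of 1103 for iHep against MEF and 476 of 1219 where iHep was set against PH. With the bacterial control level as a block 2418 genes passed between iHep and MEF, and 2951 between iHep and PH. The lines and PH 3 were on the high side of that level and the other arrays on the low side. In that fit iHep against PH rests on PH 3 alone, and iHep against MEF is linked only through PH 3. With PH 1 and PH 2 averaged 588 passed for iHep against PH. Leaving out 1 array gave 575 to 1156 genes for PH against MEF, 471 to 1874 for iHep against MEF, the highest without PH 3, and 576 to 1806 between iHep and PH. The cause was not tested. At 4-fold or more, 1 member remained past the size for 4a3CK minus 4a3 and 2 for 4a1CK minus 4a3. Quantile normalization moved the split for PH against MEF to 519 higher and 609 lower, in place of 577 and 423, and that between iHep and PH to 526 higher and 800 lower, in place of 254 and 965. Subtracting array medians gave 473 higher and 664 lower, and 465 and 816. Differences for iHep against MEF that did not pass also changed sign under some alternatives. They did so for Lamb1 (-1.62 to 0.47), Lamb2 (-0.15 to 0.49), Lama3 (-0.12 to 0.12) and Col4a5 (-1.66 to 1.38). The -1.62 of Lamb1 came from the bacterial control block.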
